A study of Mus musculus with 21 samples.

Results

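The 6 growth-related imprinted genes described here are H19, Igf2, Igf2r, Cdkn1c, Phlda2 and Grb10. They were picked by symbol, with earlier results of these data known, and are 6 of the 43436 gene IDs present in every table of the series. All 6 passed the filter on low values and are among the 16650 genes tested. The series followed the chemical reprogramming of mouse fibroblasts into pluripotent cells by RNA sequencing of 21 libraries in 10 groups. Levels are FPKM, which scale the fragments of each gene for gene length and sequencing depth.

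The starting cells were embryonic fibroblasts (MEF) from E13.5 embryos, with 2 libraries. Intermediate cells of the same origin had 2 libraries at day 16 and a single library at each of day 12, day 20, day 26 and day 28. The pluripotent cells obtained chemically (CiPSC) were 7 lines (C1 to C3, G1, G3, N4, N6), each with 1 library. The mouse strain of all these cells is given as C57BL/6J-Tg(GOFGFP)11Imeg/RbrcxICR, and the compounds they received are not given in the sources used here. The other cells came from embryos. Extraembryonic endoderm (XEN) cells of wild-type ICR mice had 2 groups of 2 libraries. The CeXEN cells were derived from E3.5 embryos in a medium with the compounds labelled VC6TFAE and 20 ng/ml bFGF. The eXEN group was 1 established line, grown for replicate 1 in a medium with VC6TF and 20 ng/ml bFGF and for replicate 2 in traditional XEN medium. Embryonic stem cells (ESC) from E3.5 embryos had 2 libraries, replicate 1 of the same strain as the MEF and replicate 2 of C57BL/6 (B6)N. The sources do not say that libraries of a group came from separate cultures, so the spread between them may be technical. The 2 eXEN libraries differ in medium and the 2 ESC libraries in strain. With 1 eXEN line, a trait of that line cannot be told apart from the group. The XEN cells differ in strain from all other groups, so strain cannot be told apart from group when XEN cells are compared with other cells.

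Marker lists were set against the labels. The 12 pluripotency markers were all detected at 1 FPKM or more in the CiPSC and ESC libraries, with summed levels of 4873 to 6060 FPKM in CiPSC and 5193 to 5442 FPKM in ESC. They were also all detected at day 28, at a sum of 613 FPKM, and 11 of them at day 26. The 12 XEN markers were all detected in the CeXEN and eXEN libraries and in each library from day 12 to day 28. Their sum was 2942 FPKM at day 12, against 1535 and 2657 FPKM in MEF, where 5 and 6 of them were detected. The 12 fibroblast markers summed to 3947 and 12091 FPKM in MEF, and to 1075 FPKM at day 12, 302 and 665 FPKM at day 16, 131 FPKM at day 20, 222 FPKM at day 26 and 62.0 FPKM at day 28. In the CiPSC lines 3 to 11 of them were detected, with sums of 10.3 to 102 FPKM. The depth of the libraries, estimated from genes with 1 fragment and set against ESC replicate 1, lay between 0.403 and 1.58. The lowest was CiPSC line C3.

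An imprinted gene is expressed mainly from the copy inherited from 1 parent, and the choice is held by DNA methylation laid down in the germ line. Many imprinted genes set the growth of the embryo and placenta. Igf2 encodes a growth factor and is expressed from the paternal copy, and its neighbour H19 gives a long non-coding RNA from the maternal copy, from enhancers that the pair share. Igf2r clears the Igf2 protein, Cdkn1c blocks the cell cycle, Phlda2 restrains placental growth and Grb10 dampens signalling by the insulin and IGF receptors. These 4 genes are known as maternally expressed growth restrainers in mouse, with Grb10 paternally expressed in neurons.

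In the mm10 build, 4 of the 6 genes lie on distal chromosome 7. H19 (ENSMUSG00000000031) spans chr7:142575529-142578143 and Igf2 (ENSMUSG00000048583) spans chr7:142650766-142666816, with 72622 bases between them. Cdkn1c (ENSMUSG00000037664) spans chr7:143458350-143461050 and Phlda2 (ENSMUSG00000010760) spans chr7:143501545-143502541, with 40494 bases between them. Igf2r (ENSMUSG00000023830) spans chr17:12682406-12769664 and Grb10 (ENSMUSG00000020176) spans chr11:11930508-12038683. All 6 are annotated on the minus strand.

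H19 is also the host of a microRNA. The 84 bases annotated as Mir675 lie inside H19 exons, so the values for H19 cover the RNA from which the miRNA is cut. The mature forms, from RefSeq on GRCm38.p6, are shown because this is the best defined product of H19. The capitals mark the seed, bases 2 to 8.
mmu-miR-675-5p: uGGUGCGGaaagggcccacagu
mmu-miR-675-3p: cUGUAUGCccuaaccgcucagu
The Mir675 row and the row of Mir483, a miRNA gene inside Igf2, were listed at 0 FPKM in every library. All 84 bases of Mir675 lie in H19 exons, and H19 was detected in every library. A 0 in these rows therefore does not show that a miRNA was absent.

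RefSeq start windows of 300 bases, with 250 before the start and 50 after it, were found for 4 of the 6 genes. They are shown because methylation of CpG sites is the mark by which imprints are kept. Whether these windows carry that mark is not known from these data, and their part in the levels of the 4 genes was not tested. All are from GRCm38.p6, on the minus strand, and the capitals mark each CG. The Igf2 window, chr7:142657447-142657746, belongs to 1 of several annotated Igf2 starts, and the Grb10 window, chr11:12037371-12037670, is likewise 1 of those annotated. The Igf2r window is chr17:12769657-12769956 and the Phlda2 window chr7:143502475-143502774.
Igf2: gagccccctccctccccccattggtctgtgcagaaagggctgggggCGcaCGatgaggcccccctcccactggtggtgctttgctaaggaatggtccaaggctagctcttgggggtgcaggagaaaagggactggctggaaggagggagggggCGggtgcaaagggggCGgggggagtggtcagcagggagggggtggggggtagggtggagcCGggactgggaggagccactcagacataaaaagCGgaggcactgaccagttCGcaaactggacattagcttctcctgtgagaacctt
Grb10: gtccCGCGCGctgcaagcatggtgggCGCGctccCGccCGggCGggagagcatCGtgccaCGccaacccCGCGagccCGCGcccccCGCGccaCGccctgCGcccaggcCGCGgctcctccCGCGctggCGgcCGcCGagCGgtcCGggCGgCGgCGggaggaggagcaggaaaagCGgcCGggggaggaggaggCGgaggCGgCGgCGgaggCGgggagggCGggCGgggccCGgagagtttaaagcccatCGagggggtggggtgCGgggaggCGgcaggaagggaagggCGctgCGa
Igf2r: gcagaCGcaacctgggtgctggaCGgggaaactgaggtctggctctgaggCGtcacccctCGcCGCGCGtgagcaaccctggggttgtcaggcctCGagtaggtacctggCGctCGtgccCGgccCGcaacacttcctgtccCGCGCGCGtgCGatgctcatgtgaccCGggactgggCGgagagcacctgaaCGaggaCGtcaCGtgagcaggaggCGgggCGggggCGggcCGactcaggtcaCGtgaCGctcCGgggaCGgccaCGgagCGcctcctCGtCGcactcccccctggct
Phlda2: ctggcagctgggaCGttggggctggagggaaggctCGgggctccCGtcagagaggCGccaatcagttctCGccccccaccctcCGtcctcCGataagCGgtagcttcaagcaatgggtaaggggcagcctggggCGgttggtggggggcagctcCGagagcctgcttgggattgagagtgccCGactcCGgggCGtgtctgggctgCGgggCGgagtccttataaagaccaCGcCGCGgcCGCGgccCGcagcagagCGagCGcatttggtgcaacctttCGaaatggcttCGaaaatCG
The Grb10 window holds 45 CG and the Igf2r window 34, counts reached by 1.93% and 7.73% of the 32851 windows of that length, whose median is 7. The Phlda2 window holds 26 CG, reached by 16.9% of windows, and 1 TATAAA on either strand, a motif found in 13.6% of windows. The Igf2 window shown holds 7 CG, which is the median, while the other Igf2 windows hold 24, 14 and 2. The other Grb10 window holds 9 CG, so for these genes the count depends on the start chosen. The letters describe the windows alone, since methylation was not measured.

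H19 and Igf2 were the most variable of the genes. H19 stood at 312 and 1234 FPKM in MEF, at 8557 FPKM at day 12, at 2050.2 and 1652 FPKM at day 16, at 378 FPKM at day 20, at 308 FPKM at day 26 and at 509.8 FPKM at day 28. At day 12 it was the gene with the rank 4 of all genes and took 1.17% of the summed FPKM of that library. Igf2 stood at 634 and 658 FPKM in MEF, at 2759 FPKM at day 12, at 753 and 715 FPKM at day 16, at 262 FPKM at day 20, at 110.5 FPKM at day 26 and at 121 FPKM at day 28. Both genes were highest in the single day 12 library and lower in every later one. The tables of day 12, day 16 replicate 1, day 20 and day 26 mark 446 loci as having too few data, a mark absent from the other 17 tables, so these 4 libraries may have been quantified with other settings, and levels set across the 2 kinds of table carry that doubt. Igf2os, an antisense RNA at Igf2, had 1.39 and 0.931 FPKM in MEF, 57.02 FPKM at day 12, 49.7 and 19.6 FPKM at day 16 and 4.83 FPKM at day 28. Of the 5337 exonic bases of Igf2os, 98 lie within Igf2 exons, and whether the counting used strand is not given in the sources used here.

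**Figure D1:**
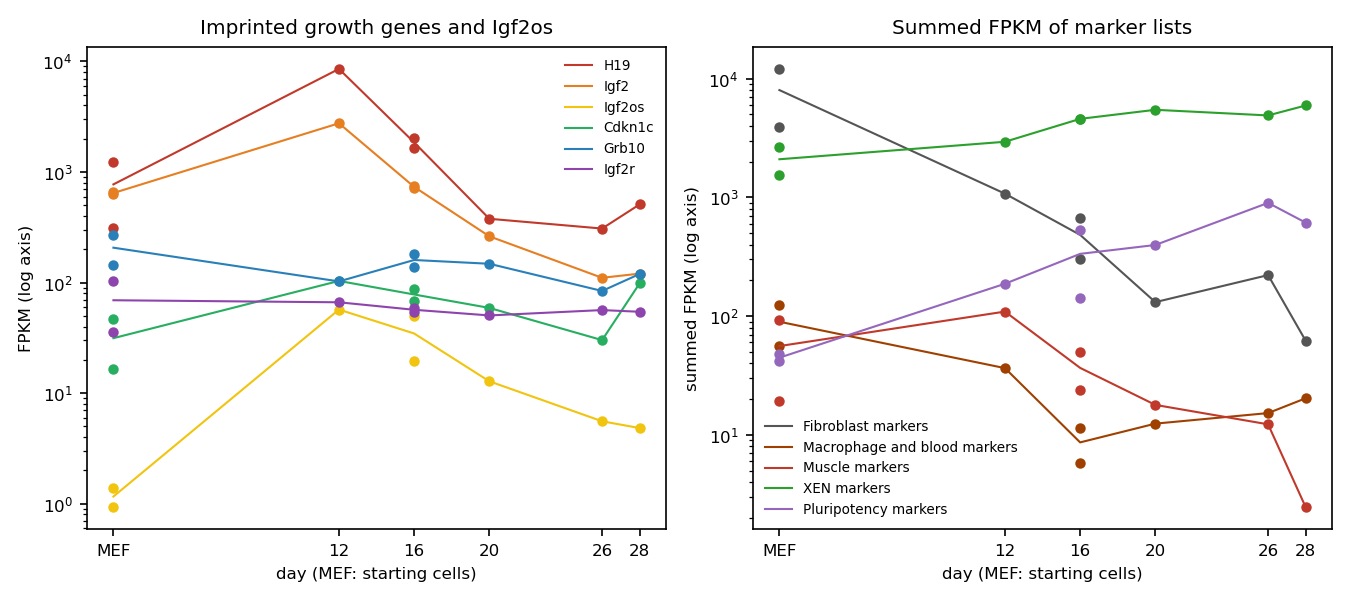
Left, FPKM (log axis) of 5 of the genes and of Igf2os in each library against the day of reprogramming, with MEF as the starting cells; points are libraries and lines join group means. Right, the summed FPKM (log axis) of 5 marker lists in the same libraries. H19 and Igf2 peak at 8557 and 2759 FPKM at day 12, while the fibroblast sum lies at 1075 FPKM at day 12 and 62.0 FPKM at day 28.

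A straight line through the 6 libraries from day 12 to day 28 gave a log2 change over 16 days of -4.05 for H19 (SE 1.04, adjusted p = 0.182) and of -4.42 for Igf2 (SE 0.52, adjusted p = 0.175). Neither passed the threshold, which was an adjusted p under 0.05 with a log2 change of at least 1, and limma called 0 of 16650 genes (0.0%) in this trend, with 3349 at an unadjusted p under 0.05. The other 4 genes had log2 changes between -0.73 and -0.07 over the same days. Day 12 had 1 library, so its peak has no replicate. The fibroblast sum given above was lower in the later libraries too, and the muscle marker sum was 109 FPKM at day 12 and 2.46 FPKM at day 28. The sum of 10 trophoblast markers was 45.8 FPKM at day 12 and 20.5 FPKM at day 28, against 2.96 and 0.798 FPKM in MEF. Their part in the H19 and Igf2 levels was not tested, and in bulk RNA fewer cells of a type and less RNA per cell cannot be told apart.

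In day 16 cells against MEF, 1 of the 6 genes was called, where 20.7% of all genes were called, 13.3% higher and 7.41% lower. That gene was Cdkn1c, described below. H19 ranges did not overlap, with 2050.2 and 1652 FPKM at day 16 against 312 and 1234 FPKM in MEF, but the log2 change of 1.57 (SE 1.61) did not pass the test (adjusted p = 0.526). Igf2 was 734 ± 27.3 FPKM at day 16 and 646 ± 17.0 FPKM in MEF (SD, n = 2 each). The difference of 0.18 on the log2 scale (SE 0.87, adjusted p = 0.935) turned in sign with median-of-ratios scaling (-0.15). Igf2os rose by 3.91 (SE 0.43, adjusted p = 1.44e-05). The MEF library with more H19, replicate 2, also had the higher fibroblast sum (12091 against 3947 FPKM in replicate 1) and muscle sum (92.6 against 19.3 FPKM), and the part of these cells in the H19 level was not tested. The median of all tested genes was itself 0.22 higher at day 16 than in MEF on the same log2(FPKM + 1) scale.

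In the XEN cells H19 and Igf2 differed widely between libraries of 1 group. H19 had 20.0 and 293 FPKM in CeXEN, against 369 and 22.7 FPKM in eXEN, so the groups overlapped fully and the log2 change was -0.25 (SE 1.61, adjusted p = 1.0). Igf2 had 31.3 and 202 FPKM in CeXEN, against 17.1 and 1.48 FPKM in eXEN. These groups did not overlap, and Igf2 was called higher in CeXEN with a log2 change of 3.60 (SE 0.87, adjusted p = 0.021). That call was lost without CeXEN replicate 2 (log2 change 2.27, adjusted p = 0.252) and without eXEN replicate 2 (2.16, adjusted p = 0.236). CeXEN replicate 2, the higher for both genes, had a fibroblast marker sum of 97.3 FPKM, against 42.3 FPKM in replicate 1. Its trophoblast marker sum was 23.8 FPKM with 5 of 10 detected, against 1.49 FPKM with 0 detected in replicate 1. The XEN marker sums were close, at 6220 FPKM in replicate 2 and 6315 FPKM in replicate 1. The part of these lists in the H19 and Igf2 levels was not tested. The eXEN library with the high H19 value was the one grown with bFGF, and with 1 library per medium the effect of the medium cannot be told apart from that of the library.

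Day 16 cells had more Igf2 than either XEN group. Against eXEN, the 753 and 715 FPKM of day 16 gave a log2 change of 6.78 (SE 0.87, adjusted p = 7.99e-05). Against CeXEN the log2 change was 3.18 (SE 0.87, adjusted p = 0.0262), a comparison added after the data were seen, and that call was lost without day 16 replicate 1 (adjusted p = 0.0971), without day 16 replicate 2 (0.0994) and without CeXEN replicate 1 (log2 change 1.85, adjusted p = 0.238). H19 at day 16 exceeded every XEN library, but the log2 changes of 4.30 against eXEN (SE 1.61, adjusted p = 0.0692) and 4.55 against CeXEN (SE 1.61, adjusted p = 0.0762) did not pass the threshold. The first passed without eXEN replicate 1 (6.28, adjusted p = 0.0252) and the second without CeXEN replicate 2 (6.45, adjusted p = 0.042). Both comparisons use the same day 16 libraries. Fibroblast markers were higher in them too, 10 of 12 in day 16 against eXEN (14.0% of all genes) and 7 of 12 against CeXEN (9.11% of all genes). Their sums were 302 and 665 FPKM at day 16, against 9.11 to 13.1 FPKM in eXEN and 42.3 to 97.3 FPKM in CeXEN. Their part in the Igf2 and H19 differences was not tested. Strain also differs between day 16 and both XEN groups and cannot be told apart from group here.

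In the ESC libraries H19 had 59.4 and 44.6 FPKM and Igf2 7.19 and 18.4 FPKM. Against them, eXEN gave log2 changes of 0.84 for H19 (SE 1.61, adjusted p = 0.733) and -0.91 for Igf2 (SE 0.87, adjusted p = 0.443). The first turned to -1.14 without eXEN replicate 1 and the second to 0.52 without eXEN replicate 2.

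**Figure D2:**
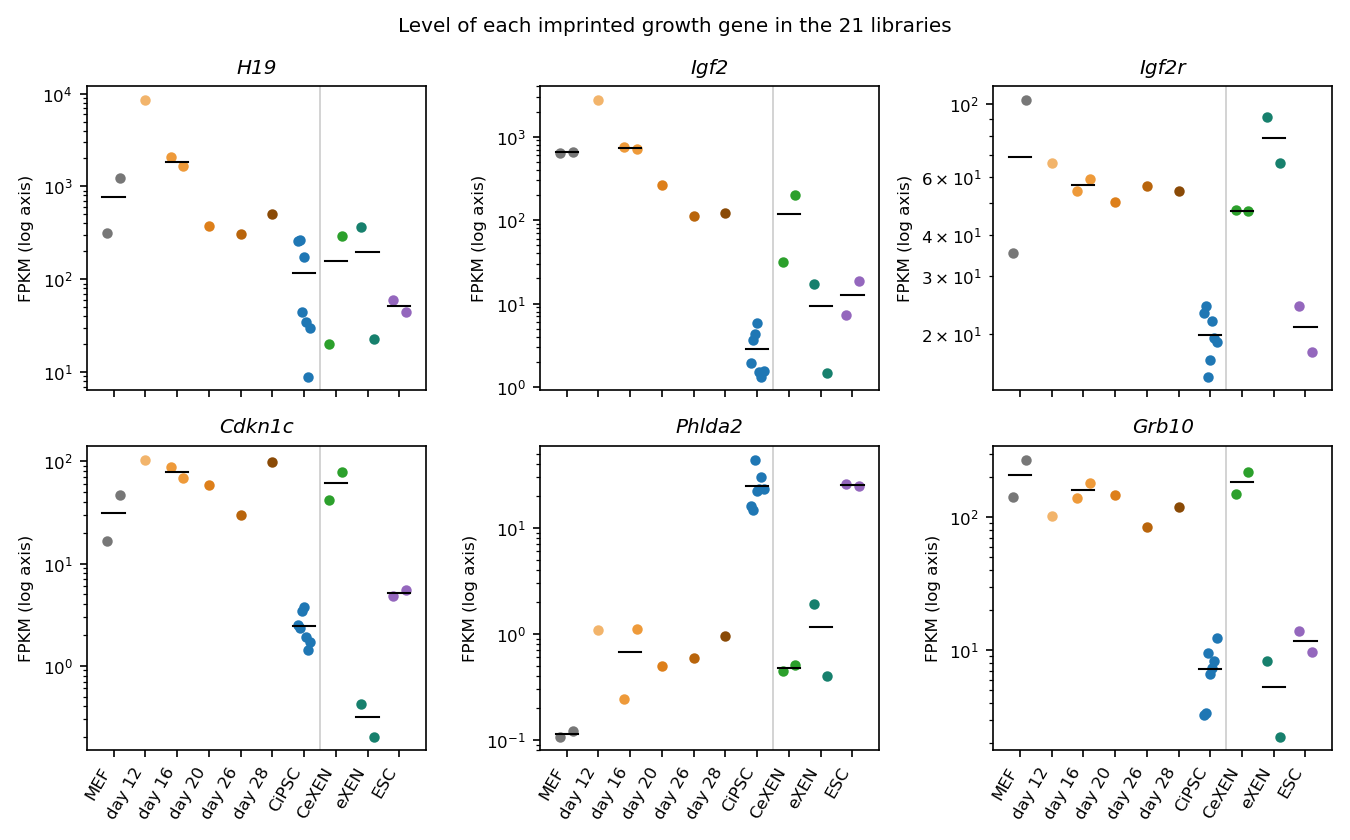
FPKM (log axis) of each of the 6 genes in the 21 libraries, by group; points are libraries and bars are group means, with the reprogramming cells left of the grey line and the cells from embryos right of it. Phlda2 is at 14.6 FPKM or more in all CiPSC and ESC libraries and at 1.90 FPKM or less in all others.

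The H19 to Igf2 ratio, which FPKM allows since it is per length, separated the pair further. It was 0.492 and 1.88 in MEF, and between 1.44 and 4.23 from day 12 to day 28. It was 0.640 and 1.45 in CeXEN, against 21.6 and 15.4 in eXEN. In the CiPSC lines it lay between 6.73 and 133, with a value of 8.26 in ESC replicate 1 and 2.42 in ESC replicate 2. Both eXEN libraries had a high ratio, while H19 differed 16.2-fold between them. Many of the Igf2 values below it are small, with 4 to 58 fragments behind those of the CiPSC lines as implied by the bounds in the tables, so these ratios are rough.

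Igf2r, the receptor that takes Igf2 to the lysosome, was the steadiest gene of the set. It had 54.5 and 59.1 FPKM at day 16, against 35.4 and 103 FPKM in MEF. The difference of -0.09 (SE 0.37, adjusted p = 0.915) became 0.66 without MEF replicate 2. From day 12 to day 28 its levels lay between 50.5 and 66.4 FPKM. In eXEN it had 91.3 and 66.3 FPKM, against 24.3 and 17.7 FPKM in ESC. The groups did not overlap and Igf2r was called higher in eXEN, with a log2 change of 1.85 (SE 0.37, adjusted p = 0.0013). CeXEN had 47.6 and 47.5 FPKM, below both eXEN libraries, with a log2 change of -0.70 (SE 0.37, adjusted p = 0.299).

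Airn, the antisense RNA known to silence Igf2r on the paternal copy in mouse, lies across the start of Igf2r on the other strand, with 0 of its exonic bases in Igf2r exons. It had 6.99 and 5.87 FPKM at day 16, against 1.60 and 1.66 FPKM in MEF, and rose by 1.50 (SE 0.27, adjusted p = 0.000969). It had 3.88 and 2.59 FPKM in eXEN, against 0 and 0.487 FPKM in ESC, and rose by 1.78 (SE 0.27, adjusted p = 0.000181). In the CiPSC lines it did not exceed 0.546 FPKM. Thus Airn and Igf2r were both higher in eXEN than in ESC, and both lower in CiPSC than at day 16.

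Cdkn1c, which encodes the cell-cycle inhibitor p57, was the 1 gene of the set called higher at day 16 than in MEF. It had 88.0 and 68.2 FPKM at day 16, against 16.5 and 46.4 FPKM in MEF, and the groups did not overlap. The log2 change was 1.45 (SE 0.43, adjusted p = 0.0217). The call was lost without MEF replicate 1 (0.73, adjusted p = 0.24), without day 16 replicate 1 (1.26, adjusted p = 0.136) and with median-of-ratios scaling (1.12, adjusted p = 0.0533). The single libraries had 104 FPKM at day 12, 59.0 FPKM at day 20, 30.2 FPKM at day 26 and 98.6 FPKM at day 28, with no steady direction.

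Cdkn1c separated the 2 groups of XEN cells by the largest log2 change of the 6 genes. It had 42.2 and 79.3 FPKM in CeXEN, against 0.427 and 0.203 FPKM in eXEN, where 10 and 5 fragments stood behind the values. The log2 change was 5.49 (SE 0.43, adjusted p = 3.18e-06). With eXEN replicate 1 alone, grown with bFGF and VC6TF where CeXEN had bFGF and VC6TFAE, it was 5.37. Both eXEN libraries are of 1 line, so line and medium cannot be told apart from the group. Day 16 cells were higher than eXEN by 5.90 (SE 0.43, adjusted p = 5.29e-07), and eXEN were lower than ESC, whose libraries had 4.78 and 5.53 FPKM, by a log2 change of -2.23 (SE 0.43, adjusted p = 0.0011).

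Grb10, an adaptor that dampens insulin and IGF receptor signalling, followed Cdkn1c across the XEN cells. It had 150.2 and 221 FPKM in CeXEN, against 8.26 and 2.24 FPKM in eXEN, a log2 change of 5.06 (SE 0.56, adjusted p = 8.3e-05). With eXEN replicate 1 alone it was 4.31, and here too the 1 eXEN line cannot be told apart from the group. Day 16 cells, at 138 and 182 FPKM, were higher than eXEN by 4.87 (SE 0.56, adjusted p = 3.1e-05). MEF had 143 and 271 FPKM, and day 16 differed from them by -0.31 (SE 0.56, adjusted p = 0.757), which became 0.15 without MEF replicate 2. Grb10 in eXEN against ESC, which had 14.0 and 9.60 FPKM, changed by -1.21 (SE 0.56, adjusted p = 0.105), and this passed without eXEN replicate 1 (-1.96, adjusted p = 0.0249).

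Of the 6 genes, 3 were called higher in CeXEN than in eXEN, namely Igf2, Cdkn1c and Grb10, where 6.47% of all genes were called, 4.01% higher and 2.46% lower. The same 3 were called higher at day 16 than in eXEN, where 17.1% of all genes were called, 14.0% higher and 3.17% lower, and the 2 comparisons share the eXEN libraries. In eXEN against ESC, 3 of 6 were called, with Igf2r higher and Cdkn1c and Phlda2 lower, where 28.1% of all genes were called, 9.78% higher and 18.4% lower. In the added comparison of day 16 with CeXEN, Igf2 was the 1 gene called, where 11.3% of all genes were called, 9.11% higher and 2.18% lower.

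Phlda2, which encodes a pleckstrin homology protein that restrains placental growth, was low outside the pluripotent cells. It had 0.107 and 0.122 FPKM in MEF, 1 fragment each, and between 0.243 and 1.11 FPKM in the libraries from day 12 to day 28. In eXEN it had 1.90 and 0.402 FPKM, against 25.9 and 24.9 FPKM in ESC, and fell by 3.71 (SE 0.45, adjusted p = 2.37e-05). CeXEN, with 0.445 and 0.504 FPKM, lay inside the eXEN range. Phlda2 and Cdkn1c lie close together and are both maternally expressed in mouse, yet Cdkn1c was at 42.2 FPKM or more in CeXEN and Phlda2 at 0.504 FPKM or less.

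**Figure D3:**
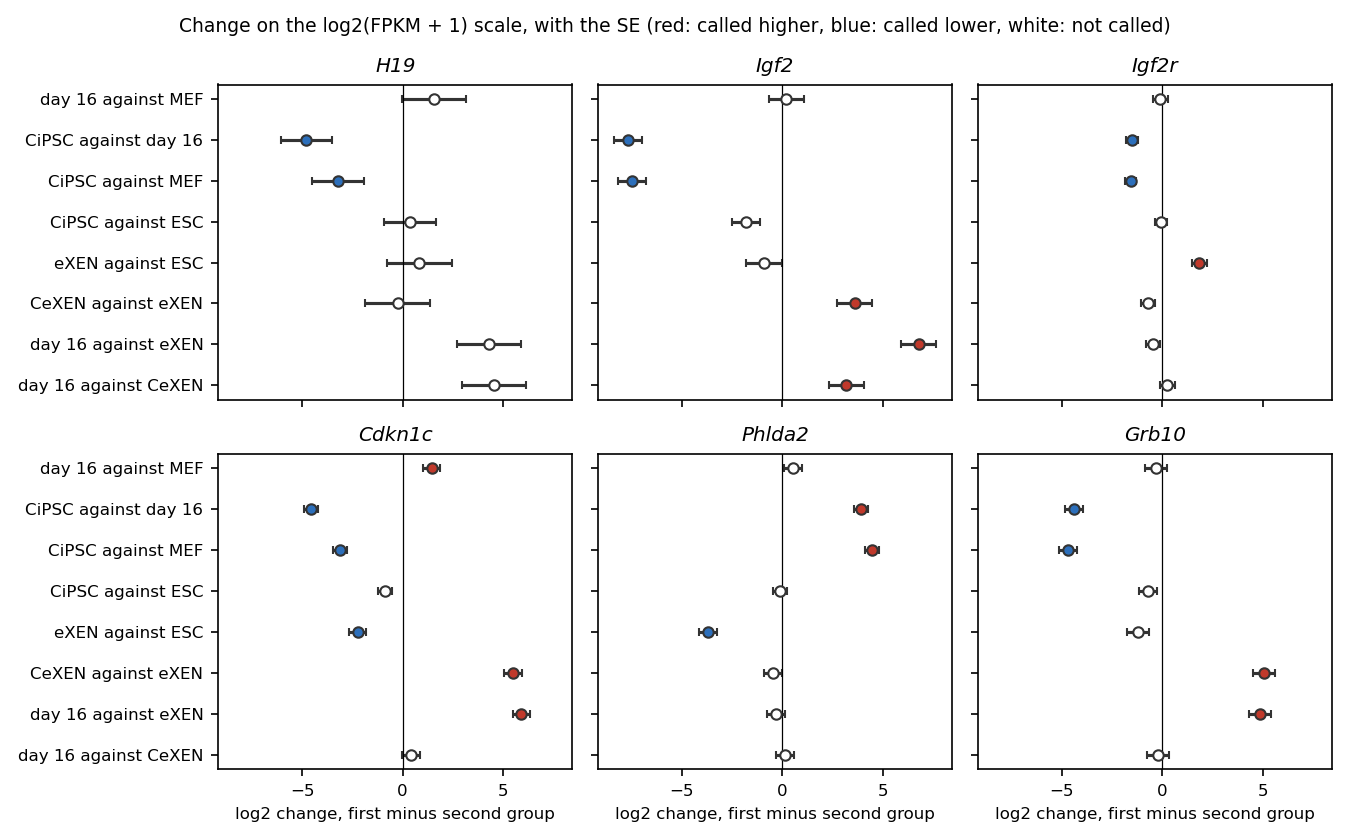
Log2 change of each gene in 8 comparisons, first group minus second, on the log2(FPKM + 1) scale with the SE from limma; red points were called higher, blue points lower and white points were not called. CiPSC against day 16 and CiPSC against MEF have all 6 genes called, and CiPSC against ESC has none.

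The CiPSC lines were low in Igf2, Cdkn1c and Grb10 and high in Phlda2, the reverse of day 16 cells and MEF. All 6 genes were called in CiPSC against day 16, where 29.9% of all genes were called, 13.0% higher and 17.0% lower. All 6 were called in CiPSC against MEF too, where 37.0% were called, 21.7% higher and 15.3% lower. Both comparisons use the same CiPSC libraries, and in both 5 genes were lower and Phlda2 was higher. Of 12 fibroblast markers, 8 were lower in CiPSC against day 16 and 12 in CiPSC against MEF, and their part in these changes was not tested. In CiPSC against ESC 0 of 6 were called, where 0.0601% of all genes were called, 0.036% higher and 0.024% lower. In that last comparison 2 of the 6 had an unadjusted p under 0.05, as did 1412 of all 16650 genes tested.

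Igf2 lay between 1.33 and 5.85 FPKM in the 7 lines, with a median of 1.94 FPKM. The mean of 2.87 ± 1.74 FPKM in CiPSC (SD, n = 7) stood against 734 ± 27.3 FPKM at day 16 (SD, n = 2), a log2 change of -7.68 (SE 0.70, adjusted p = 8.71e-07). Against MEF it was -7.50 (SE 0.70, adjusted p = 7.1e-07). The highest line, G1, was below the lower ESC library at 7.19 FPKM, but the change of -1.82 (SE 0.70) was not called (adjusted p = 0.517). The share of all genes that set the lines apart from the ESC libraries in this way is not given here.

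H19 in the lines fell into no such narrow range. It was 259 FPKM in C1, 264 FPKM in C2, 44.5 FPKM in C3, 172 FPKM in G1, 34.8 FPKM in G3, 8.96 FPKM in N4 and 29.9 FPKM in N6. The highest line was 29.5 times the lowest, and the ESC libraries, at 59.4 and 44.6 FPKM, lay inside this range. The change against ESC was 0.35 (SE 1.29, adjusted p = 0.996). Against day 16 it was -4.78 (SE 1.29, adjusted p = 0.00719), which was lost without day 16 replicate 1 (adjusted p = 0.071). Against MEF it was -3.22 (SE 1.29, adjusted p = 0.0462). This call was close to the threshold and was lost without MEF replicate 1 (-4.21, adjusted p = 0.0669), without MEF replicate 2 (-2.23, adjusted p = 0.335) and without line C3, G3, N4 or N6 (adjusted p between 0.0637 and 0.07).

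The fibroblast marker sum was 10.3 FPKM in C1, 10.5 FPKM in C2, 102 FPKM in C3, 67.8 FPKM in G1, 54.3 FPKM in G3, 76.3 FPKM in N4 and 65.6 FPKM in N6, with 9.75 and 8.03 FPKM in the ESC libraries. Igf2 was 1.94 FPKM in C1, 3.61 FPKM in C2, 4.29 FPKM in C3, 5.85 FPKM in G1, 1.53 FPKM in G3, 1.33 FPKM in N4 and 1.56 FPKM in N6. The lines lowest in H19, namely N4, N6 and G3, were thus also the lowest in Igf2.

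**Figure D4:**
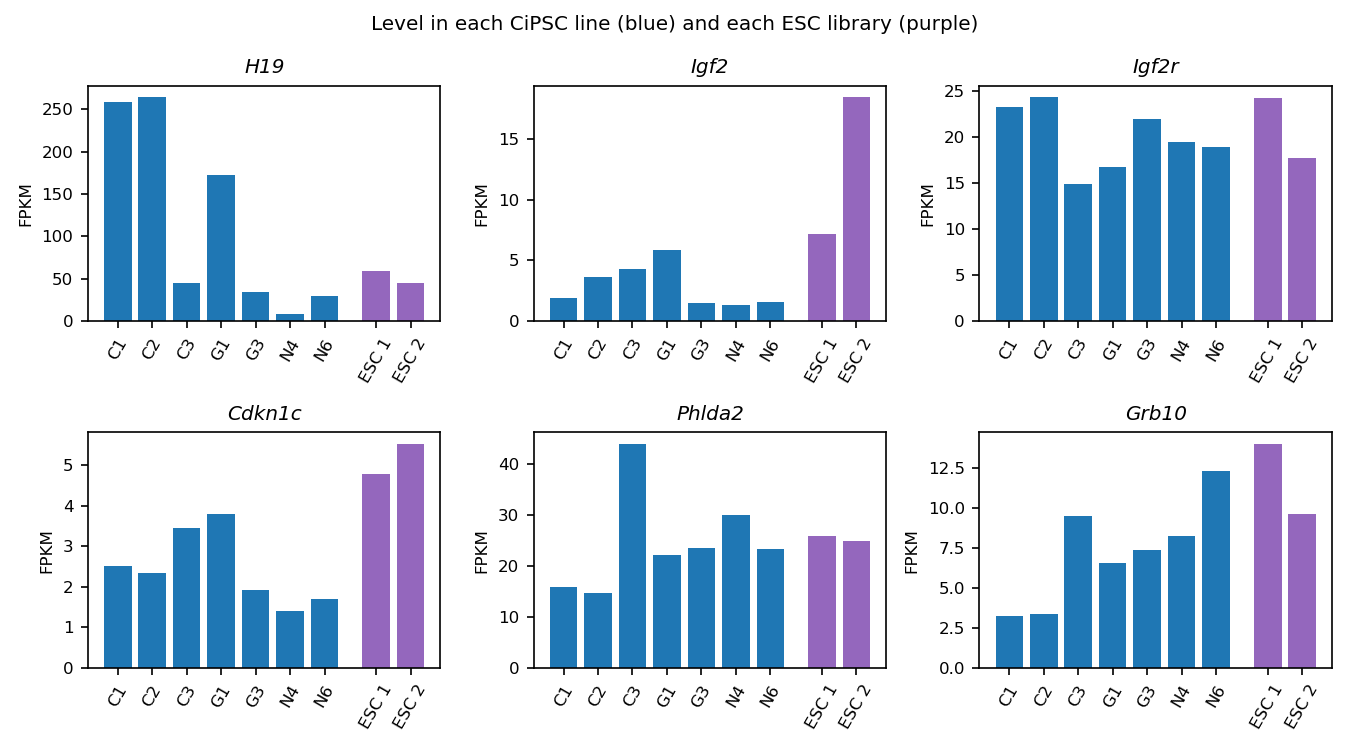
FPKM of each of the 6 genes in each CiPSC line (blue) and each ESC library (purple), 1 bar per library, each axis from 0. H19 is at 172 FPKM or more in C1, C2 and G1 and at 44.5 FPKM or less in the other lines, while Cdkn1c and Igf2 are below both ESC libraries in every line.

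Cdkn1c was 2.51 FPKM in C1, 2.34 FPKM in C2, 3.44 FPKM in C3, 3.80 FPKM in G1, 1.92 FPKM in G3, 1.41 FPKM in N4 and 1.71 FPKM in N6. Every line was below both ESC libraries, at 4.78 and 5.53 FPKM, and the change of -0.87 (SE 0.35) was not called (adjusted p = 0.524). Against day 16 it fell by 4.55 (SE 0.35, adjusted p = 1.43e-07) and against MEF by 3.10 (SE 0.35, adjusted p = 3.85e-06).

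Grb10 was 3.25 FPKM in C1 and 3.38 FPKM in C2, the lines with the most H19, and between 6.59 and 12.3 FPKM in the others. The mean of 7.24 ± 3.25 FPKM in CiPSC (SD, n = 7) differed from the 11.8 ± 3.13 FPKM of ESC (SD, n = 2) by -0.72 (SE 0.45, adjusted p = 0.702). Against day 16 Grb10 fell by 4.38 (SE 0.45, adjusted p = 2.69e-06) and against MEF by 4.69 (SE 0.45, adjusted p = 8.86e-07).

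Phlda2 was 16.0 FPKM in C1, 14.6 FPKM in C2, 44.0 FPKM in C3, 22.1 FPKM in G1, 23.5 FPKM in G3, 30.1 FPKM in N4 and 23.3 FPKM in N6. The ESC libraries lay inside this range, with a change of -0.11 in CiPSC (SE 0.36, adjusted p = 0.99). Against day 16 it rose by 3.91 (SE 0.36, adjusted p = 9.34e-07) and against MEF by 4.45 (SE 0.36, adjusted p = 1.81e-07).

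Igf2r lay between 14.9 and 24.4 FPKM in the lines, with a median of 19.5 FPKM, and overlapped the ESC values (log2 change -0.07, SE 0.29, adjusted p = 0.999). Against day 16 it fell by 1.48 (SE 0.29, adjusted p = 0.000905) and against MEF by 1.57 (SE 0.29, adjusted p = 0.000412). Without MEF replicate 2 the change against MEF was -0.81 (adjusted p = 0.0202), under the minimum size for a call.

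The order of the groups differed by gene. Mean levels of H19 and Igf2 were highest at day 12 and day 16, those of Grb10 in MEF and CeXEN, those of Igf2r in eXEN and MEF, and those of Phlda2 in ESC and CiPSC. Neighbours in these orders often overlapped, as for Grb10 in MEF, CeXEN and day 16, for Igf2r in eXEN and MEF, and for H19 in eXEN, CeXEN, CiPSC and ESC. For Cdkn1c the 3 lowest groups, ESC, CiPSC and eXEN, did not overlap one another, though the change between CiPSC and ESC was not called.

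Across the 10 group means of log2(FPKM + 1), Pearson's r was 0.90 between H19 and Igf2 and 0.93 between Cdkn1c and Grb10. It was -0.92 between Igf2r and Phlda2. The groups share an origin in several cases, so these values are descriptions. Among 11056 genes compared in the same way, those most like H19 were Pla2r1 (r = 0.98), Nkd1 (0.97) and Serpinb9b (0.96). Those most like Igf2 were Trim44 (0.98), Arsb (0.97) and Ripk1 (0.97). For Igf2r they were Sphk1 (0.99), Ube2e2 (0.98) and Tmem132a (0.97), and for Cdkn1c they were Pag1 (0.98), Fabp5 (0.95) and Pon2 (0.95). For Phlda2 they were Rln3, Morc1 and Hesx1 (0.99 each), and for Grb10 Tspan6, Snhg18 and Msantd4 (0.96, 0.95 and 0.95).

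The genes beside H19, Igf2, Cdkn1c and Phlda2 on chromosome 7 were called in both directions. Of 17 tested neighbours, 2 were higher and 5 lower in CiPSC than in MEF, where 21.7% of all genes were higher and 15.3% lower. The list was near the 37.0% of all genes called there only with both directions pooled. The largest changes were those of Lsp1, an actin-binding protein (-5.01, SE 0.35, adjusted p = 4.01e-08), and of Osbpl5, a lipid-binding protein (-4.07, SE 0.23, adjusted p = 5.39e-09). Of 7 macrophage and blood markers, 6 were lower in the same comparison, and so were 12 of 12 fibroblast markers. The part of either list in the Lsp1 change was not tested. The decoy receptor genes Tnfrsf23 and Tnfrsf22 went apart, by -3.04 (SE 0.28, adjusted p = 7.34e-07) and 2.68 (SE 0.77, adjusted p = 0.00861). In CeXEN against eXEN, where Igf2 and Cdkn1c were called higher, 0 of the 17 were called higher and 1 lower (4.01% and 2.46% of all genes), the lysosomal protease gene Ctsd (-1.30, SE 0.24, adjusted p = 0.00378). The median change of these 17 genes in that comparison was -0.03, beside 0.06 for all genes.

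**Figure D5:**
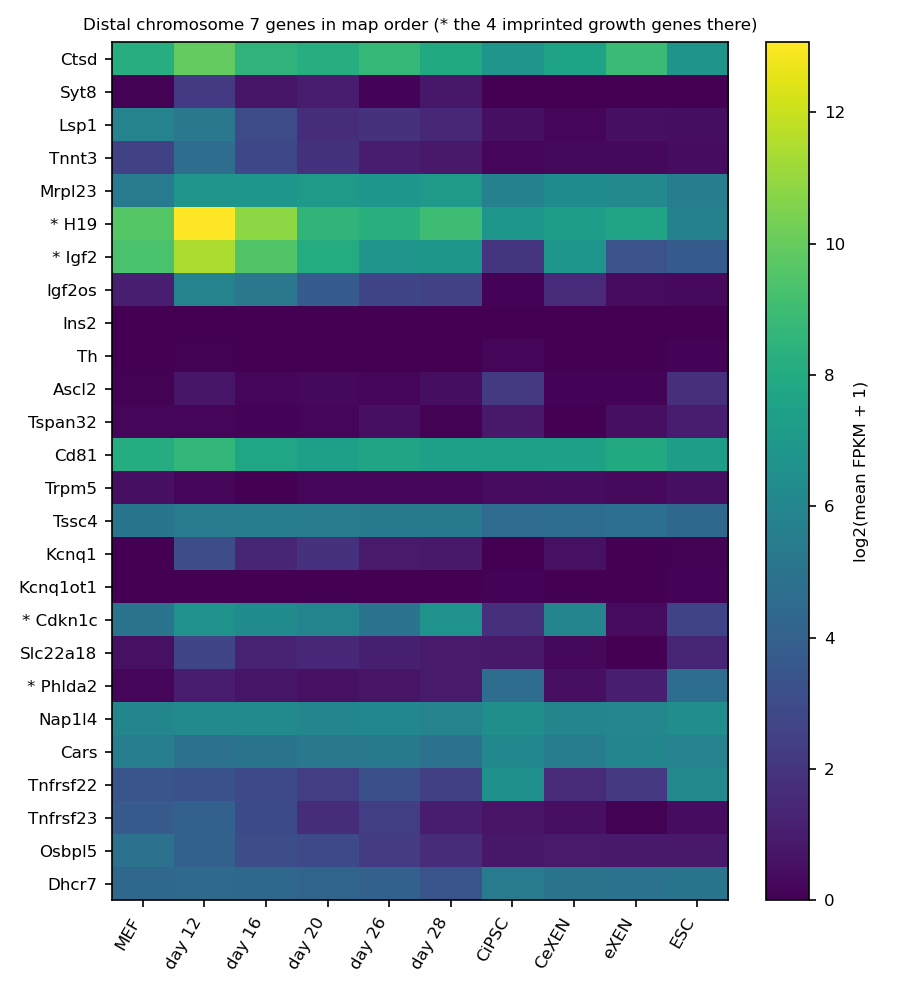
Mean level of distal chromosome 7 genes in each group as log2(mean FPKM + 1), in map order from top to bottom, with the 4 imprinted growth genes starred. H19 and Igf2 stand out at day 12, Cdkn1c is low in eXEN, CiPSC and ESC, and Phlda2 is high in CiPSC and ESC alone.

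Among 7 IGF binding proteins, which carry IGFs outside the cell, 1 was higher and 5 were lower in CiPSC than at day 16, where 13.0% of all genes were higher and 17.0% lower. Igfbp5 fell by 4.57 (SE 0.55, adjusted p = 1.35e-05) and Igfbp6, which prefers Igf2, by 3.74 (SE 0.34, adjusted p = 7.66e-07). In day 16 against eXEN, 5 of 7 were higher and 0 lower, where 14.0% of all genes were higher and 3.17% lower, among them Igfbp7 (6.40, SE 0.97, adjusted p = 0.000293) and Igfbp3 (5.84, SE 0.86, adjusted p = 0.000241). In eXEN against ESC, 0 were higher and 2 lower (9.78% and 18.4% of all genes), and Igfbp2 fell by 6.37 (SE 0.74, adjusted p = 1.76e-05). The median of the 7 was -3.02 in CiPSC against day 16, beside -0.02 for all genes, and 4.48 in day 16 against eXEN, beside 0.23 for all genes. The fibroblast markers moved with them, 8 of 12 lower in CiPSC than at day 16 and 10 of 12 higher at day 16 than in eXEN, and their part was not tested.

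Of 19 tested genes of IGF and insulin signalling, 1 was higher and 4 were lower at day 16 than in MEF. There 13.3% of all genes were higher and 7.41% lower, 20.7% in either direction. The list was near this share only with both directions pooled. Igf1r, the receptor through which Igf2 drives growth, fell by 2.16 (SE 0.28, adjusted p = 6.03e-05). Pappa, a protease that frees IGFs from their binding proteins, fell by 2.53 (SE 0.33, adjusted p = 6.6e-05), and Igf1 by 1.72 (SE 0.44, adjusted p = 0.00897). Grb7, a relative of Grb10, rose by 3.47 (SE 0.66, adjusted p = 0.00136). In CiPSC against MEF, 2 were higher and 9 lower (21.7% and 15.3% of all genes), and the kinase gene Akt1 fell by 2.69 (SE 0.18, adjusted p = 3.57e-08). The list median there was -0.75, beside 0.25 for all genes. In eXEN against ESC, 5 were higher and 0 lower (9.78% and 18.4% of all genes), with Irs2, an insulin receptor substrate, at 2.62 (SE 0.55, adjusted p = 0.00198).

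Of 7 genes tied to Igf2 mRNA, to H19 RNA or to the let-7 miRNAs, 1 was higher at day 16 than in MEF and 0 were lower. This was near the 13.3% and 7.41% of all genes. The higher gene was Lin28a, which blocks let-7 (5.40, SE 0.37, adjusted p = 1.75e-07). In CiPSC against day 16, 2 were higher and 2 lower, where 13.0% of all genes were higher and 17.0% lower. The IGF2 mRNA-binding gene Igf2bp1 rose by 2.64 (SE 0.31, adjusted p = 9.83e-06) while Igf2 itself fell, and Hmga2, a chromatin protein gene, fell by 4.08 (SE 0.58, adjusted p = 5.69e-05).

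Of 6 other cyclin-dependent kinase inhibitor genes, 1 was higher and 1 lower in CeXEN than in eXEN (4.01% and 2.46% of all genes), with Cdkn2c at 1.70 (SE 0.31, adjusted p = 0.00379) and Cdkn1a at -1.39 (SE 0.32, adjusted p = 0.0164). Of the same 6, 0 were higher and 3 lower in CiPSC against day 16 (13.0% and 17.0% of all genes), and likewise in CiPSC against MEF (21.7% and 15.3%), where Cdkn1c was lower too. In CiPSC against MEF, where Phlda2 rose, both other Phlda genes fell, with log2 changes of -2.37 for Phlda1 (SE 0.83, adjusted p = 0.0246) and -1.50 for Phlda3 (SE 0.25, adjusted p = 0.000156). Neither was called in CeXEN against eXEN or in CiPSC against ESC, where Phlda2 was not called either. Near Grb10, 4 genes were tested, and 1 was called higher in CeXEN than in eXEN, the AAA ATPase gene Fignl1 (1.07, SE 0.27, adjusted p = 0.0283), where 4.01% of all genes were. Near Igf2r, 8 genes were tested, and in eXEN against ESC 1 of them was higher, Airn, and 3 were lower (9.78% and 18.4% of all genes), among them Pnldc1 (-2.91, SE 0.29, adjusted p = 4.86e-06), which encodes an exonuclease that trims piRNAs.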

How the data were processed

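Total RNA was sequenced in 21 mouse libraries. The deposited tables, 1 per library, hold FPKM values that the authors made with TopHat and Cufflinks on mm10, per the submitters' processing notes; versions, gene models and use of strand are not given in the sources used here. FPKM was analysed as log2(FPKM + 1), with a pseudocount of 1, which understates changes of low genes. The 16650 genes reaching 1 FPKM in 2 or more libraries were tested. A single limma model (3.58.1, R 4.3.3) held all 21 libraries, with a mean for each group, leaving 11 degrees of freedom, and an intensity trend of the prior variance. P-values were adjusted by Benjamini-Hochberg over all genes within a comparison, and calls needed an adjusted p under 0.05 together with a log2 change of 1 or more in size. The trend over days used the 6 libraries from day 12 to day 28. The model was tested on simulated data. Fragments behind a value and relative depth were derived from the confidence bounds in the tables. The status given by Cufflinks was other than OK somewhere for 472 genes, of which 78 were tested and stayed in.

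The 6 genes, the gene lists and the marker lists were chosen with earlier results of these data known. Named genes were the 6 themselves, up to 4 called genes with the largest change in each list, the 3 genes most like each in group means (symbols of known genes with a group mean of at least 5 FPKM), and antisense or miRNA genes at their loci. Day 16 against CeXEN, the crossed replicate numbers and the trend in 4 libraries were added after seeing the data. Other alternatives covered the pseudocount (0.1), filters (none, or FPKM 5), scaling, the prior, the libraries fitted, the replicate block, genes of status OK, the rank of the day and leaving out each library.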

Additional observations from a re-analysis of the deposited data

Results flagged for a closer look

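Airn, the antisense RNA at Igf2r, was 0.546 FPKM in CiPSC line C3 and between 0 and 0.176 FPKM in the other 6 lines. The gap from C3 to the next line was a larger part of the whole range (0.678) than Dixon's 95% limit for 7 values (0.568). C3 was the shallowest library, with a depth of 0.403 relative to ESC replicate 1. Igf2r in C3 was 14.9 FPKM, the lowest of the lines. Chance sets 1 line apart in this way in about 1 in 20 groups, and 8 genes were looked at in the CiPSC lines, at both ends.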

How the results depend on the processing

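The 6 genes called in CiPSC against day 16 and in CiPSC against MEF stayed in the same direction under all alternatives. The call itself was lost for H19 in 8 of 17 alternatives against MEF and in 1 against day 16, and for Igf2r in 1 against MEF. The number of the 6 genes called in day 16 against MEF went to 0 with median-of-ratios scaling, with only the groups compared and with the replicate block, and lay between 0 and 1 when each library was left out. With only the groups compared, it was 1 in day 16 against eXEN and 0 in CeXEN against eXEN, a fit in which limma called 0 genes of all in CeXEN against eXEN, with 2184 at an unadjusted p under 0.05. In day 16 against CeXEN it was 0 without a filter, with only the groups compared and with the block, and between 0 and 2 when each library was left out. Signs turned for values that were never called. Igf2 in day 16 against MEF was -0.15 with median-of-ratios scaling. Leaving out each library in turn gave ranges across 0 as follows. In day 16 against MEF, Grb10 lay between -0.77 and 0.15 and Igf2r between -0.85 and 0.66. In eXEN against ESC, H19 lay between -1.14 and 2.82 and Igf2 between -2.35 and 0.52. In day 16 against eXEN, Phlda2 lay between -0.84 and 0.21. In CeXEN against eXEN, H19 lay between -2.23 and 1.73 and Phlda2 between -0.98 and 0.072. In CiPSC against ESC, Igf2r lay between -0.29 and 0.14. In day 16 against CeXEN, Phlda2 lay between -0.25 and 0.52, Cdkn1c between -0.034 and 0.86, and Grb10 between -0.48 and 0.078, while Phlda2 was -0.49 with quantile normalization. In the trend, Phlda2 lay between -0.38 and 0.23 and Cdkn1c between -1.99 and 0.0043, while Phlda2 was 0.16 with quantile normalization. The cause was not tested.

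With median-of-ratios scaling, H19 was 8029.5 FPKM at day 12, 355.5 at day 20, 288.1 at day 26 and 485.3 at day 28. Igf2 was 765 FPKM in MEF, 2589 at day 12, 693 at day 16, 247 at day 20 and 103 at day 26. Igf2r was 62.3 FPKM at day 12, 53.4 at day 16, 47.5 at day 20, 52.8 at day 26 and 50.4 in CeXEN. Cdkn1c was 97.1 FPKM at day 12, Phlda2 0.136 FPKM in MEF, and Grb10 96.1 FPKM at day 12, 139 at day 20 and 78.6 at day 26. Scaling also moved the median of all genes, which was 0.22 in day 16 against MEF, -0.26 in eXEN against ESC, 0.23 in day 16 against eXEN, 0.25 in CiPSC against MEF and 0.13 in day 16 against CeXEN. Of all genes called in day 16 against MEF, 64.3% were higher, and 47.0% with quantile normalization. This share was 34.7% and 52.4% in eXEN against ESC, 81.5% and 53.2% in day 16 against eXEN, 62.0% and 49.8% in CeXEN against eXEN, and 80.7% and 57.6% in day 16 against CeXEN. The trend of H19 was -5.61 and that of Igf2 -5.25 in the 4 libraries that carry a low-data mark (adjusted p = 0.465 each).

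Replicate numbers did not pair the libraries, whose deviations correlated at -0.12 to -0.004 over the comparisons. With the replicate block, limma called 1212 genes higher and 760 lower in day 16 against MEF, where Cdkn1c had an adjusted p of 0.0962, and 125 higher and 75 lower in CeXEN against eXEN, where Igf2 had an adjusted p of 0.226. With crossed numbers, day 16 against eXEN gave 1371 higher and 293 lower. No paired analysis was possible for the comparisons with CiPSC because its replicates are numbered lines.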

Other observations

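Other imprinted genes also set the 2 groups of XEN cells apart, with both eXEN libraries again from 1 line. Of 35 tested, 10 were higher and 0 lower in CeXEN than in eXEN (4.01% and 2.46% of all genes), with a list median of 0.49 beside 0.06 for all genes. The maternally expressed RNAs of 1 cluster on chromosome 12 were among them. Meg3 was 70.4 ± 16.5 FPKM in CeXEN and 0.134 ± 0.109 FPKM in eXEN (SD, n = 2 each), a log2 change of 5.96 (SE 0.36, adjusted p = 2.15e-07). Rian was 261 ± 17.9 FPKM in CeXEN, against 0 and 0.61 FPKM in eXEN (7.69, SE 0.28, adjusted p = 4.03e-10), and Mirg was listed at 0 in both eXEN libraries. Peg10, a paternally expressed gene derived from a retrotransposon, was 562 and 948 FPKM in CeXEN, against 71.9 and 4.72 FPKM in eXEN, with a log2 change of 5.16 (SE 1.05, adjusted p = 0.00756).

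The same 3 cluster RNAs were the 3 imprinted genes of this list called in CiPSC against ESC, all higher, where 0.036% of all genes were. Meg3 lay between 55.5 and 132 FPKM in the 7 lines, against 14.1 FPKM in both ESC libraries (2.59, SE 0.29, adjusted p = 0.000853). Rian lay between 148 and 274 FPKM in the lines, against 32.4 and 33.4 FPKM in ESC (2.50, SE 0.23, adjusted p = 0.000176). Mirg changed by 2.64 (SE 0.25, adjusted p = 0.000187). A list of 18 genes set together as imprint maintenance held, among others, enzymes that write, keep or remove DNA methylation. Of these 18, 12 were higher and 1 lower in CiPSC than at day 16, where 13.0% of all genes were higher and 17.0% lower. In CiPSC against ESC 0 of them were called. The 12 include Tet1 and Tet2, whose enzymes remove methylation, and Zfp42, also a pluripotency marker, and the 1 lower was Tet3, of the same family as Tet1. Dnmt3l, a partner of the DNA methyltransferases, rose by 6.51 in CiPSC against day 16 (SE 0.56, adjusted p = 4.93e-07). In eXEN against ESC 1 of the 18 was higher and 10 were lower (9.78% and 18.4% of all genes), among them Zfp57, which guards imprints (-4.03, SE 0.40, adjusted p = 3.92e-06).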
